A study of Mus musculus with 17 samples.

Results

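Disease-associated microglia are brain macrophages that leave their resting state near damaged tissue and protein deposits. The 10 genes followed here are widely used markers of that state: Trem2, Tyrobp, Clec7a, Axl, Itgax, Cd9, Apoe, Lpl, Spp1 and Cst7. They were taken by symbol from a table of 24498 gene symbols, all 10 were present, and the rule uses no measured value. The table held read counts of poly(A) RNA from 1 mm slices of the dorsal hippocampus of mice, with the dentate gyrus and the CA1, CA2 and CA3 fields. The question asked of the genes was whether seeding with tau raised them in wild-type or in knockout mice.

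Mice were either wild type (WT) or had a constitutive knockout (KO) of Acss2, the gene of acetyl-CoA synthetase 2, which makes acetyl-CoA from acetate. KO and WT mice were bred as separate homozygous crosses from the offspring of heterozygotes. All of them received an intracranial injection at 6 months of age, either of tau protein purified from the brains of people with Alzheimer's disease (Tau) or of phosphate-buffered saline (PBS), and the study examined its mice 6 months later. The study's methods place the tau injection in the right dorsal hippocampus. They do not state from which side the slices for RNA came. No tau transgene is given for these mice, so the model rests on the mouse's own tau. Among males, each pairing of genotype (WT, KO) and injection (PBS, Tau) had 3 libraries. Among females, which all received Tau, 2 libraries were from WT and 3 from KO mice. Without females given PBS, the effect of Tau can be read only in males. Replicate numbers of female libraries begin with 3 and those of male libraries with 7, so sex and number series cannot be told apart.

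In the resting state microglia are marked by genes such as P2ry12 and Tmem119. When the receptor Trem2 binds lipids, apolipoproteins or cell debris, it signals through the adaptor Tyrobp, and the cell lowers its resting genes and raises genes for lipid uptake, lysosomal digestion, adhesion and phagocytosis. Trem2 and Tyrobp are already made by resting microglia, whereas Clec7a, Itgax and Cst7 are close to silent in them. In mice this state is best known from models with amyloid plaques. Apoe, Axl, Cd9, Lpl and Spp1 are not confined to microglia: astrocytes make most of the brain's Apoe and also express Axl, oligodendrocytes express Cd9, pyramidal neurons express Lpl, and fibroblasts of the meninges can express Spp1.

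Libraries held between 14183131 and 22463635 counts. A count of 0 would allow up to 3 counts, which is 0.134 to 0.212 CPM (counts-per-million) and covers counting error only. The genotype labels held for Acss2, whose level was 44.0 to 54.6 CPM over the 8 WT mice and 3.07 to 8.81 CPM over the 9 KO mice. Markers of resting microglia were present in every library (P2ry12 27.1 to 51.0 CPM, Tmem119 22.1 to 37.8 CPM). Some libraries stood apart in cell type markers. Male KO Tau replicate 711 had 11393 CPM summed over 12 astrocyte genes, against 6145 to 7275 CPM in the other 11 male libraries. Male KO Tau replicate 713 had 5392 CPM over 13 choroid plexus genes, against 226 to 1113 CPM in the other 16 libraries. Male KO PBS replicate 753 had the most resting microglia RNA of its group, with 715 CPM over 15 genes against 497 and 582 CPM. Over the same 15 genes male KO Tau replicate 711 had 806 CPM, the most of the male libraries.

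The stretch before the transcription start is shown for 4 members, Trem2 as the receptor of the pathway and the 3 genes that separated female from male libraries. The sequences are from RefSeq on GRCm38.p6, written 5′ to 3′ on the gene's strand and ending at the base before the start, with motif matches in capitals. RefSeq windows were found for 8 of the 10 members, and Tyrobp and Lpl had none. Windows of 250 bases were searched on both strands for a PU.1 site (GAGGAAGT), bound by the master factor of the macrophage lineage, for an AP-1 site (TGANTCA) and for the E-box of lysosomal genes (CACGTG). The PU.1 letters stood in 2.44%, the AP-1 letters in 6.75% and the E-box letters in 6.02% of 32851 mouse windows.
Trem2 (chr17:48346151-48346400, plus strand): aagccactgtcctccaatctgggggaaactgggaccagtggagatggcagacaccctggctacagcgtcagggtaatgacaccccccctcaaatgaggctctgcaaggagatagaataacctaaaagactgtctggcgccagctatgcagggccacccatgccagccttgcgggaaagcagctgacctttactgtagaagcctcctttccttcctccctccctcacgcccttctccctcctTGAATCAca
Clec7a (chr6:129472780-129473029, minus strand): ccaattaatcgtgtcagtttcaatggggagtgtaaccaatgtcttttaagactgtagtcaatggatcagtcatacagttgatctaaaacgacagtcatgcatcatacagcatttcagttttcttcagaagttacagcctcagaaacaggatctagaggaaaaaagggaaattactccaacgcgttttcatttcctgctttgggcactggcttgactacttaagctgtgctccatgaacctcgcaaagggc
Itgax (chr7:128129300-128129549, plus strand): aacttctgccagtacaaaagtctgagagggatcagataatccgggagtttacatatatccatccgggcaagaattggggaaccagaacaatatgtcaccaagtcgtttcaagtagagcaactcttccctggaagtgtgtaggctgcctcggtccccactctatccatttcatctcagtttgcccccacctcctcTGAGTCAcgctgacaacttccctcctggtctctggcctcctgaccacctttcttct
Cst7 (chr2:150570165-150570414, plus strand): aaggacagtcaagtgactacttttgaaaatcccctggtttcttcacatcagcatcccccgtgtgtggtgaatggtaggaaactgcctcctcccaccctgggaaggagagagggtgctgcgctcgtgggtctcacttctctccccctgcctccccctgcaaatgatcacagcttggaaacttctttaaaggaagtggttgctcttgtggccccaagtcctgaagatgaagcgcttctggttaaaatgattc
The capitals mark an AP-1 match, which begins at position -9 in Trem2 and at position -56 in Itgax. None of the 3 motifs was found in the printed windows of Clec7a and Cst7. Spp1 was the only member with the PU.1 letters, at position -113, and neither Axl, Cd9 nor Apoe had any of the 3. A match is a description of the letters and not evidence of binding.

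Compared per length, as RPKM (the CPM divided by the kilobases of annotated exon) in male WT PBS, Apoe was far above the rest at 819.7 ± 16.1 RPKM (SD, n = 3). Cd9 (17.8 ± 0.951) and Tyrobp (17.3 ± 2.36) followed and did not differ beyond their spread, and Axl was at 11.03 ± 0.676 RPKM. Lpl (3.44 ± 0.470) and Spp1 (3.26 ± 1.10) lay within each other's spread, and Trem2, at 2.80 ± 0.130 RPKM, lay within that of Spp1. Cst7 (0.280 ± 0.147), Clec7a (0.201 ± 0.0805) and Itgax (0.0554 ± 0.0513) were lowest. Cst7 and Clec7a did not differ beyond their spread, whereas Clec7a and Itgax did by their SD. The 3 least abundant members rested on few reads in males: 5 to 29 counts per library for Clec7a, 1 to 21 for Itgax and 2 to 15 for Cst7. The exon lengths ran from 667 bases (Tyrobp) to 10478 bases (Lpl), and a gene with long, rarely used annotated exons is understated on this scale.

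**Figure D1:**
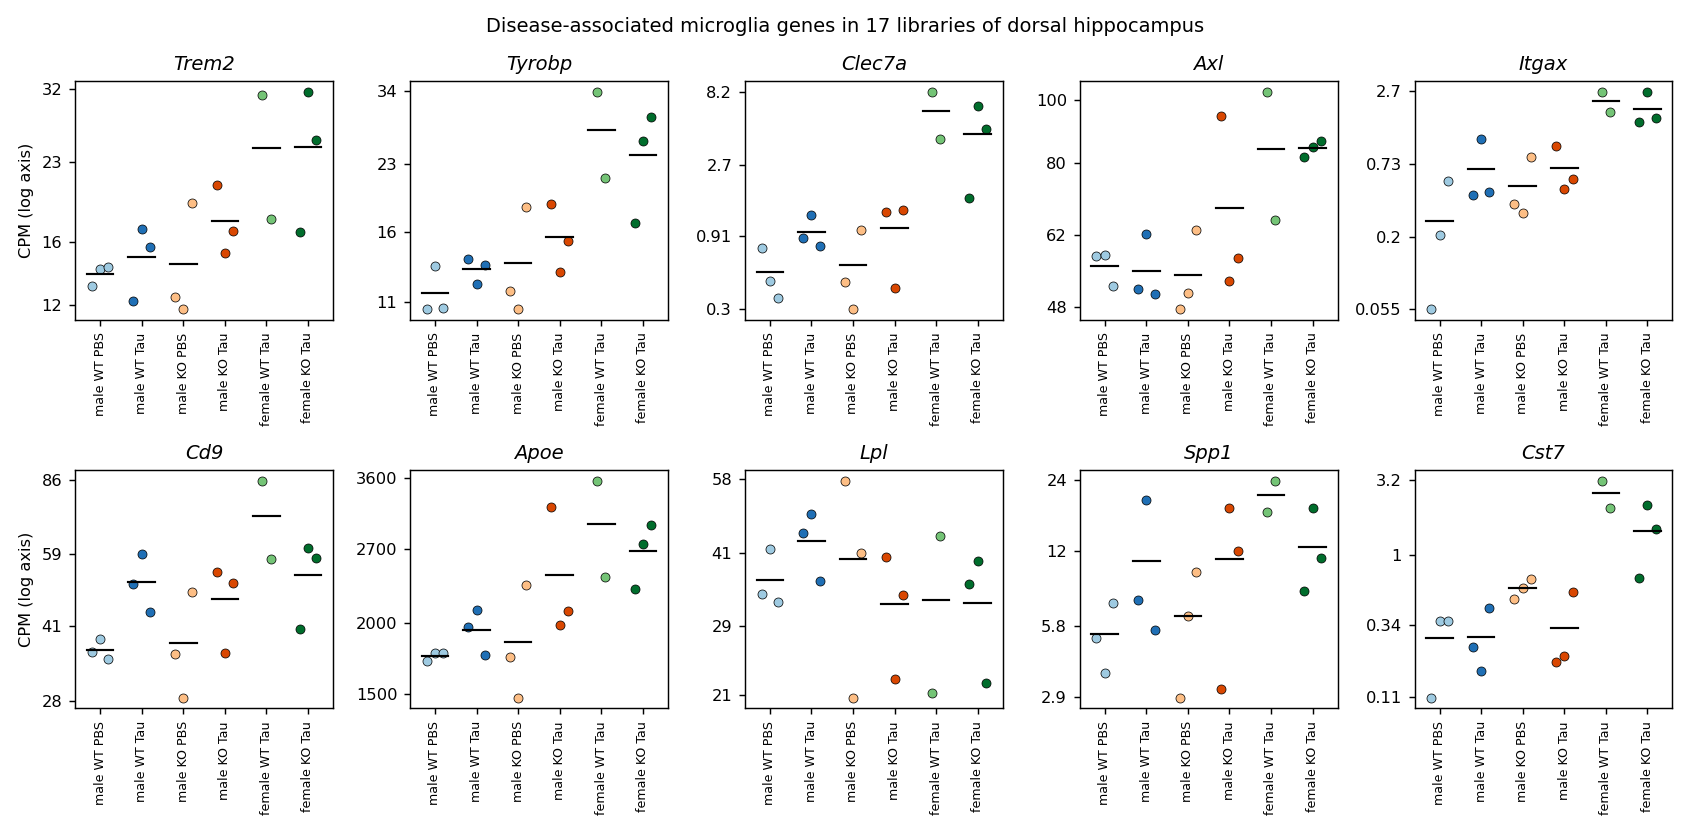
CPM of the 10 genes (log axis) in each of 17 libraries by group, with 1 point per library and a bar at the group mean. Male Tau and PBS libraries overlap in most panels, while Clec7a, Itgax and Cst7 lie highest in the 5 female libraries, from 1.62, 1.55 and 0.705 CPM upward.

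Trem2 (GRCm38 chromosome 17, 48346401 to 48354147) encodes the receptor itself. It was at 13.1, 14.2 and 14.3 CPM in male WT PBS and 12.2, 16.9 and 15.6 CPM in male WT Tau. KO males had 12.4, 11.8 and 19.0 CPM after PBS and 20.7, 15.2 and 16.7 CPM after Tau. The groups overlapped in both genotypes, and the log2 fold change of Tau against PBS was 0.094 (SE 0.19) in WT and 0.24 (SE 0.19) in KO. In females, Trem2 was at 31.2 and 17.8 CPM in WT Tau and 16.7, 31.6 and 25.4 CPM in KO Tau.

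Tyrobp (chromosome 7, 30413760 to 30417585), also called DAP12, is the adaptor that carries the Trem2 signal. It was at 10.6, 13.4 and 10.7 CPM in male WT PBS and 13.9, 12.1 and 13.4 CPM in male WT Tau. In KO males the values were 11.7, 10.6 and 18.4 CPM after PBS and 18.6, 12.9 and 15.2 CPM after Tau. Tau and PBS overlapped in both genotypes, with log2 fold changes of 0.17 (SE 0.20) in WT and 0.15 (SE 0.20) in KO. The female libraries were at 33.9 and 21.4 CPM in WT Tau and 16.9, 26.1 and 29.5 CPM in KO Tau, and 4 of the 5 lay above the highest male library.

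Clec7a (chromosome 6, 129461591 to 129472779) encodes Dectin-1, a receptor for fungal glucans that marks activated microglia. The annotation types it as a polymorphic pseudogene, that is, a gene intact in some mouse strains. It was at 0.767, 0.465 and 0.358 CPM in male WT PBS and 0.895, 1.26 and 0.787 CPM in male WT Tau. Every WT Tau library was above every WT PBS library, though by 0.787 against 0.767 CPM at the border, as in 6.84% of all genes tested. In KO males it was at 0.457, 0.302 and 1.01 CPM after PBS and 1.32, 0.417 and 1.36 CPM after Tau, with overlap. The log2 fold change was 0.86 (SE 0.53) in WT and 0.73 (SE 0.51) in KO. Female libraries stood higher, at 8.22 and 4.01 CPM in WT Tau and 1.62, 6.63 and 4.66 CPM in KO Tau.

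Axl (chromosome 7, 25757273 to 25788705), a receptor tyrosine kinase that recognises dying cells through bridging proteins, was close to level in WT males. It was at 57.4, 57.6 and 51.6 CPM in male WT PBS and 51.2, 62.1 and 50.2 CPM in male WT Tau, a log2 fold change of -0.043 (SE 0.20). The KO libraries held 47.7, 50.4 and 63.0 CPM after PBS and 94.4, 52.5 and 57.1 CPM after Tau. The KO log2 fold change was 0.30 (SE 0.20) and rested on replicate 711, without which it was -0.021 (SE 0.12). Females were at 103 and 65.3 CPM in WT Tau and 81.6, 84.6 and 86.5 CPM in KO Tau.

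Itgax (chromosome 7, 128129547 to 128150657) encodes integrin alpha X, or CD11c, a partner in a complement receptor. It was at 0.0548, 0.207 and 0.537 CPM in male WT PBS (1, 4 and 9 counts) and 0.417, 1.15 and 0.443 CPM in male WT Tau (7, 21 and 9 counts). This was the largest WT log2 fold change of the 10, 1.32, but its SE was 0.69 and the groups overlapped. In KO males it was at 0.355, 0.302 and 0.824 CPM after PBS and 1.01, 0.469 and 0.565 CPM after Tau, a log2 fold change of 0.36 (SE 0.63). Females were at 2.66 and 1.87 CPM in WT Tau and 1.55, 2.67 and 1.68 CPM in KO Tau.

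Cd9 (chromosome 6, 125460266 to 125494791) encodes a tetraspanin of the cell surface. It was at 36.0, 38.4 and 34.5 CPM in male WT PBS and 50.7, 58.9 and 43.8 CPM in male WT Tau. All 3 WT Tau libraries were above all 3 WT PBS libraries, and the log2 fold change was 0.48 (SE 0.20), or 1.39-fold, the only member with an unadjusted p under 0.05 (1.86% of all genes), with an adjusted p of 1.000 (edgeR). In KO males it was at 35.6, 28.5 and 48.7 CPM after PBS and 53.8, 35.7 and 50.9 CPM after Tau, with overlap and a log2 fold change of 0.27 (SE 0.20). Oligodendrocyte genes lay higher beside it: 7 of the 11 also had an unadjusted p under 0.05 and 11 of 11 were higher in WT Tau, with a median log2 fold change of 0.48. Their summed level was 3282 to 5303 CPM in WT PBS and 4855 to 6379 CPM in WT Tau. Their part in the Cd9 result was not tested. Females were at 85.6 and 57.4 CPM in WT Tau and 40.4, 60.8 and 57.9 CPM in KO Tau.

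Apoe (chromosome 7, 19696109 to 19699188) encodes apolipoprotein E, the main carrier of lipids between brain cells. It was at 1713, 1774 and 1770.5 CPM in male WT PBS and 1968, 2109 and 1756 CPM in male WT Tau, a log2 fold change of 0.13 (SE 0.20). KO males were at 1741, 1479 and 2336 CPM after PBS and 3203, 1987 and 2099.9 CPM after Tau, a log2 fold change of 0.35 (SE 0.20). The groups overlapped in both genotypes, and without replicate 711 the KO value was 0.092 (SE 0.15). Females were at 3558 and 2405 CPM in WT Tau and 2296, 2756 and 2969 CPM in KO Tau.

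Lpl (chromosome 8, 68880491 to 68907448) encodes lipoprotein lipase, which frees fatty acids from lipoproteins. It was at 33.8, 41.6 and 32.6 CPM in male WT PBS and 45.0, 49.1 and 35.9 CPM in male WT Tau. In KO males it was at 57.6, 20.7 and 40.9 CPM after PBS and 40.2, 22.7 and 33.6 CPM after Tau. The log2 fold changes had opposite signs, 0.25 (SE 0.31) in WT and -0.36 (SE 0.31) in KO, each about the size of its SE. The KO sign rested on KO PBS replicate 751, without which it was 0.027. Females were at 21.2 and 44.4 CPM in WT Tau and 35.5, 39.5 and 22.2 CPM in KO Tau, within the range of the males.

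Spp1 (chromosome 5, 104435118 to 104441050) encodes osteopontin, a secreted ligand of integrins and CD44. It was at 5.15, 3.67 and 7.28 CPM in male WT PBS and 7.45, 19.7 and 5.56 CPM in male WT Tau. Its level in KO males was 2.89, 6.41 and 9.84 CPM after PBS and 3.15, 18.2 and 12.0 CPM after Tau. Groups overlapped, and 1 library of each Tau group was above 18 CPM while another of the same group was at 5.56 or 3.15 CPM. The log2 fold changes were 1.01 (SE 0.63) in WT and 0.76 (SE 0.62) in KO. Fibroblast genes stood higher beside it, 8 of 9 in each genotype, with median log2 fold changes of 0.93 in WT and 0.57 in KO. Their summed level ran from 48.9 to 127 CPM in WT PBS, 98.2 to 244 CPM in WT Tau, 65.6 to 113 CPM in KO PBS and 78.8 to 246 CPM in KO Tau. Their part in Spp1 was not tested. Females were at 17.5 and 23.8 CPM in WT Tau and 8.11, 18.2 and 11.3 CPM in KO Tau. A predicted gene on the same strand shares 309 exonic bases with Spp1, so reads there cannot be assigned to 1 of them.

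Cst7 (chromosome 2, 150570415 to 150578944) encodes cystatin F, an inhibitor of lysosomal cathepsins. It was at 0.110, 0.362 and 0.358 CPM in male WT PBS (2, 7 and 6 counts) and 0.239, 0.164 and 0.443 CPM in male WT Tau (4, 3 and 9 counts). KO males were at 0.507, 0.605 and 0.687 CPM after PBS and 0.189, 0.208 and 0.565 CPM after Tau. Tau did not separate the groups, with log2 fold changes of 0.037 (SE 0.59) in WT and -0.89 (SE 0.51) in KO. Females were again higher, at 3.18 and 2.09 CPM in WT Tau and 0.705, 2.19 and 1.49 CPM in KO Tau.

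Gene by gene, none of the 10 passed the test for Tau in either genotype with edgeR. In male WT Tau against male WT PBS, 9 of 10 were higher with a median log2 fold change of 0.21, against -0.0085 over the 15098 genes tested. Of the 10, 0 passed a false discovery rate (FDR) of 0.05 (edgeR quasi-likelihood test, Benjamini-Hochberg over all genes), as did 0% of all genes, and 1, Cd9, had an unadjusted p under 0.05, against 1.86% of all genes. With DESeq2 on these 6 libraries alone Cd9 passed (adjusted p = 0.0356), as the only member among 11 genes called. Without WT PBS replicate 791, WT Tau replicate 771 or WT Tau replicate 772, 0 members had an unadjusted p under 0.05. Over all genes it was 111 of 15276, 170 of 15283 and 116 of 15258 in these fits. Clec7a and Cd9 were the 2 members whose Tau libraries all lay above the PBS libraries, a pattern found in 6.84% of all genes. Itgax, Spp1 and Clec7a had large positive WT values by rank (65th, 139th and 197th of 15098 by log2 fold change).

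In male KO Tau against male KO PBS, 8 of 10 were higher with a median of 0.29, against 0.00087 over all genes. Of the members, 0 passed the FDR, as did 0% of all genes, and 0 had an unadjusted p under 0.05, against 7.95% of all genes. No member had every Tau library above every PBS library, against 6.16% of all genes. The comparison turned on single libraries. KO Tau replicate 711 was rich in astrocyte RNA and also had the most resting microglia RNA of the male libraries. Without it, 6 of 10 were higher and the median was 0.046. The part of either cell type in this change was not tested. Without KO PBS replicate 753, which had the most microglial RNA of its group, 5 members had an unadjusted p under 0.05, against 1615 of 15223 genes tested, and without KO Tau replicate 712 it was 4, against 1448 of 15213. In none of these fits did a member pass the FDR.

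Resting microglia genes gave small positive values after Tau. Of 15 resting microglia genes 14 were higher in WT Tau and 13 in KO Tau, with median log2 fold changes of 0.089 and 0.18 and 0 past the FDR. Their summed level was 589.6 to 646 CPM in WT PBS, 605 to 681 CPM in WT Tau, 497 to 715 CPM in KO PBS and 601 to 806 CPM in KO Tau, so the groups overlapped. Choroid plexus genes, which are foreign to the hippocampus proper, were higher in 13 of 13 cases in each genotype (medians of 1.57 and 2.05). In KO 9 of the 13 had an unadjusted p under 0.05, against 7.95% of all genes. Their summed level was 226 to 322 CPM in WT PBS and 300.0 to 1113 CPM in WT Tau, 321 to 488 CPM in KO PBS and 337 to 5392 CPM in KO Tau. No gene of either list was at 0 throughout a group. The part of the choroid plexus in the members' values was not tested. With the resting microglia score as a covariate the members' median was 0.10 in WT and 0.041 in KO.

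**Figure D2:**
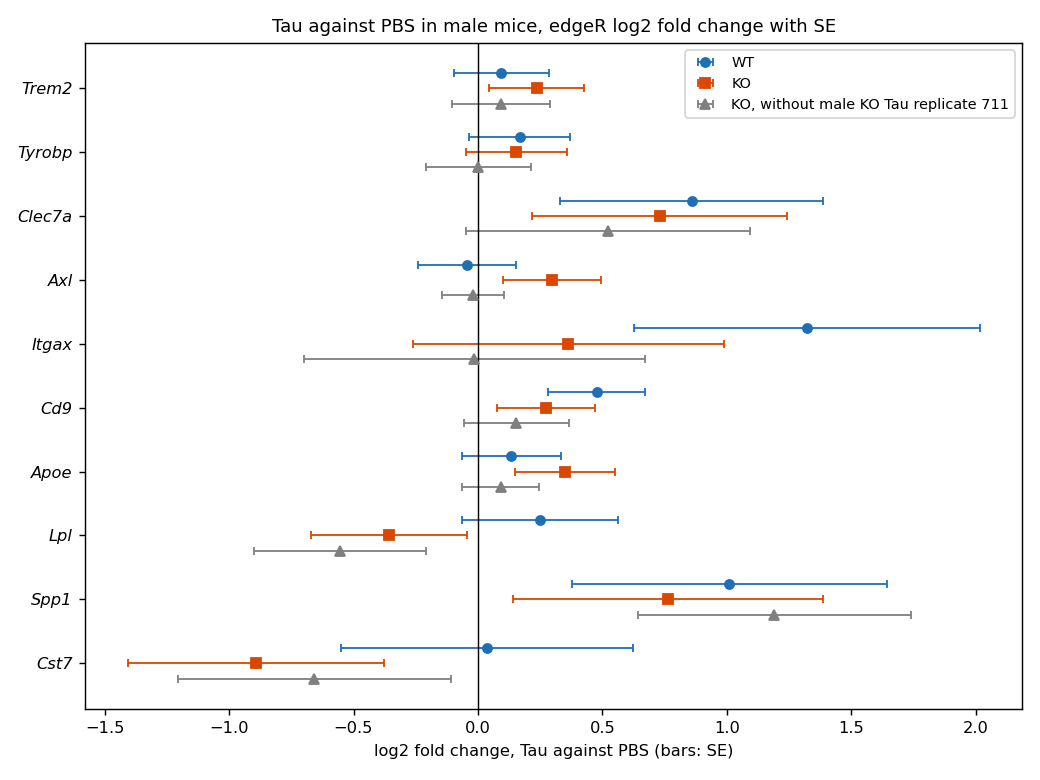
Log2 fold change of Tau against PBS for each gene in WT males, in KO males, and in KO males without male KO Tau replicate 711, with bars for the SE. Most points lie right of 0, and leaving out replicate 711 brings Axl from 0.30 to -0.021 and Apoe from 0.35 to 0.092.

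Whether Tau acted differently in KO than in WT was asked by the interaction of genotype and Tau in males. Of the 10, 0 passed the FDR (0% of all genes) and 0 had an unadjusted p under 0.05 (4.18% of all genes). The lowest p values belonged to Lpl, with an interaction of -0.61 (SE 0.44), and Axl, 0.34 (SE 0.28, adjusted p of 0.996 for both, edgeR). Averaged over both genotypes, which doubles the libraries behind the Tau effect, 8 of 10 were higher and the median was 0.20, against -0.010 over all genes. Again 0 passed the FDR (0% of all genes) and 1, Cd9, had an unadjusted p under 0.05 (5.38% of all genes), at 0.38 (SE 0.14, adjusted p = 0.888). Clec7a (0.79, SE 0.37), Spp1 (0.89, SE 0.44) and Itgax (0.84, SE 0.47) followed. Without KO PBS replicate 753, 7 members had an unadjusted p under 0.05 (1077 of 15223 genes), without KO Tau replicate 712 it was 3 (986 of 15213), and without WT Tau replicate 772 it was 0 (482 of 15258). Leaving out KO Tau replicate 711 gave 2 (992 of 15268 genes), as did leaving out WT Tau replicate 773 (848 of 15231). It was also 2 without WT PBS replicate 791 (600 of 15276) or 793 (535 of 15281). These averages share their libraries with the comparisons within each genotype.

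Loss of Acss2 by itself did not move the genes past the test. In male KO PBS against male WT PBS, 10 of 10 were higher with a median of 0.21, against 0.0095 over all genes. Of these, 0 passed the FDR and 0 had an unadjusted p under 0.05, against 0.00662% and 4.42% of all genes. Without KO PBS replicate 753 the median was -0.085. The lowest p was that of Cst7, with a log2 fold change of 1.15 (SE 0.53, adjusted p = 0.999), from 10 to 15 counts per KO PBS library and 2 to 7 per WT PBS library, followed by Itgax (0.98, SE 0.71). In male KO Tau against male WT Tau, 0 passed the FDR (0.00662% of all genes) and 0 had an unadjusted p under 0.05 (4.71%). The lowest p values there were those of Axl (0.34, SE 0.20) and Apoe (0.35, SE 0.20), which were 0.025 and 0.088 without replicate 711.

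With knockout and Tau together (male KO Tau) set against neither (male WT PBS), 9 of 10 were higher with a median of 0.40, against -0.0032 over all genes. Of the members, 0 passed the FDR (0.00662% of all genes) and 1, Apoe, had an unadjusted p under 0.05 (6.33% of all genes). Apoe had a log2 fold change of 0.48 (SE 0.20, adjusted p = 0.783) and Tyrobp of 0.44 (SE 0.20). Without replicate 711 they were 0.22 and 0.28, and the members' median was 0.27. Without KO Tau replicate 712, 10 of 10 were higher with a median of 0.54, and 6 had an unadjusted p under 0.05 (1235 of 15213 genes). Without WT PBS replicate 791 it was 0 (527 of 15276). In the Tau-injected females, KO against WT gave 3 of 10 higher and a median of -0.14, with 0 past the FDR (0.00649% of all genes) and 0 at an unadjusted p under 0.05 (2.89%). Cd9 (-0.38, SE 0.22) and Cst7 (-0.79, SE 0.50) had the lowest p values there. The direction rested on female WT Tau replicate 331, without which 6 of 10 were higher and the median was 0.11. Without the other WT library, replicate 341, 1 of 10 was higher with a median of -0.38, and without female KO Tau replicate 324 1 of 10 with a median of -0.32.

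A comparison of female with male Tau libraries was added after the counts had been seen, and its p values are to be read with that in mind. Averaged over genotypes, Cst7 was 5.96-fold higher in females (log2 2.58, SE 0.39, adjusted p = 0.00470, edgeR), and Clec7a was 4.82-fold higher (log2 2.27, SE 0.39, adjusted p = 0.00655). Itgax was 2.98-fold higher (log2 1.58, SE 0.33, adjusted p = 0.0108) and Tyrobp 1.72-fold (log2 0.78, SE 0.16, adjusted p = 0.00994). These 4 of 10 passed the FDR, against 23.8% of the 15419 genes tested. All 4 were higher in females, as were 11.4% of all genes tested past the FDR. At an unadjusted p under 0.05 there were 6 of 10, against 39.8% of all genes, with Trem2 (0.53, SE 0.19) and Axl (0.40, SE 0.16) added. The other members were at 0.48 (Spp1, SE 0.42), 0.31 (Apoe, SE 0.16), 0.26 (Cd9, SE 0.15) and -0.25 (Lpl, SE 0.24). Clec7a, Itgax and Cst7 had every female Tau library above every male Tau library, a pattern seen in 6.76% of all genes. With male KO Tau replicate 711 left out, 7 members passed, along with 6290 of 15450 genes. With female WT Tau replicate 331 left out 2 passed, along with 628 of 15739 genes.

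Within single genotypes the same direction held for the 4 genes. Between WT mice, Cst7 differed by 3.08 (SE 0.57, adjusted p = 0.0531), Clec7a by 2.54 (SE 0.57, adjusted p = 0.0901), Itgax by 1.66 (SE 0.48) and Tyrobp by 0.98 (SE 0.23). There, 0 of 10 passed the FDR (0.37% of all genes) and 7 had an unadjusted p under 0.05 (22.9%), and DESeq2 fitted to these 5 libraries alone called 6, with 2171 of 19383 genes. Between KO mice, Cst7 passed at 2.07 (SE 0.54, adjusted p = 0.0479), while Clec7a was at 2.00 (SE 0.54, adjusted p = 0.0504), Itgax at 1.49 (SE 0.45) and Tyrobp at 0.57 (SE 0.21). That is 1 of 10 past the FDR (6.33% of all genes) and 4 at an unadjusted p under 0.05 (29.5%). The KO count was 5 without male KO Tau replicate 711, when 4966 of 15450 genes were called, and 0 without any of male KO Tau replicates 712 and 713 or female KO Tau replicates 324 and 325, when 13 to 43 genes were called. The difference between female and male libraries, whose number series differ as well, was not shown to depend on genotype. For the interaction 0 of 10 passed the FDR (0% of all genes) and 0 had an unadjusted p under 0.05 (2.94%). Its lowest p values were those of Apoe (-0.45, SE 0.32) and Tyrobp (-0.41, SE 0.32).

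**Figure D3:**
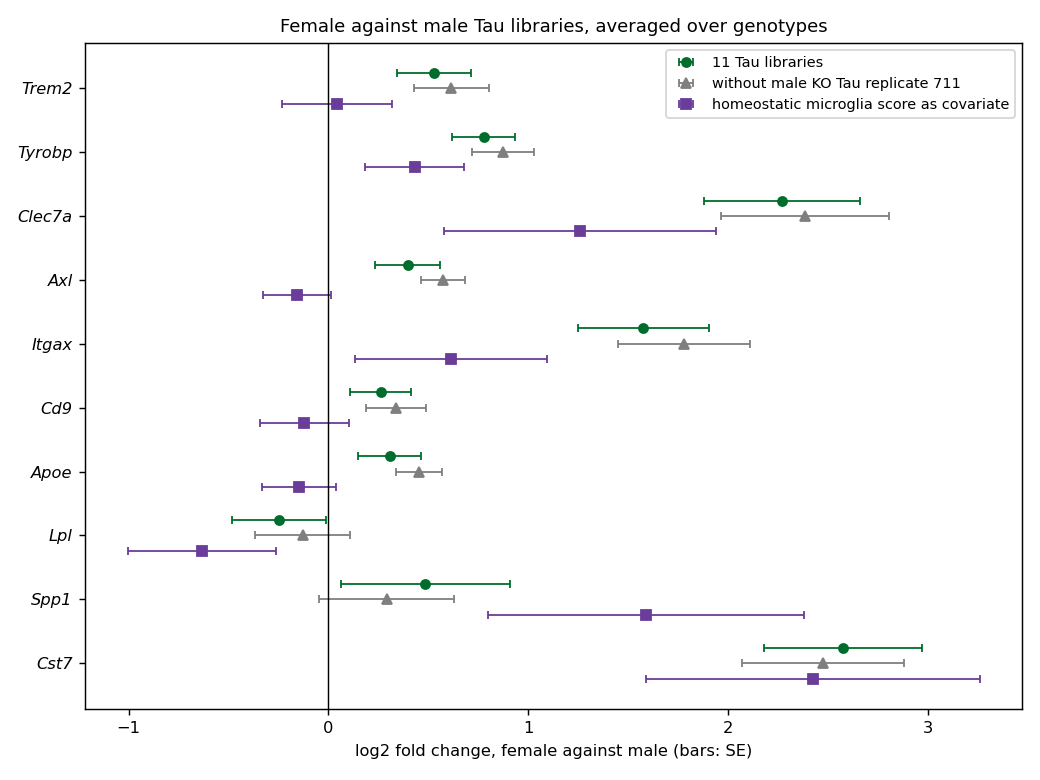
Log2 fold change of female against male Tau libraries, averaged over genotypes, for the 11 Tau libraries, without male KO Tau replicate 711, and with the resting microglia score of each library as a covariate; bars are the SE. Under the covariate Cst7 goes from 2.58 to 2.43, Clec7a from 2.27 to 1.26 and Itgax from 1.58 to 0.61, with wider bars and none past the FDR. Over all genes, 15 of 15419 passed with the covariate, against 3674 without it.

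RNA of microglia and of other cell types also differed between female and male Tau libraries. The summed level of 15 resting microglia genes was 773 to 941 CPM in the female Tau libraries and 601 to 806 CPM in the male Tau libraries. Of the 15, 6 passed the FDR, all higher in females, beside 23.8% of all genes in either direction and 11.4% in this one. In a slice of tissue, more cells of a type and more RNA per cell cannot be told apart. With that score as a covariate 0 members passed the FDR, as did 15 of 15419 genes, against 3674 without it. Cst7 was then at 2.43 (SE 0.84) and Clec7a at 1.26 (SE 0.68), and Trem2 at 0.041 in place of 0.53. Male KO Tau replicate 711, with 806 CPM of the resting genes, lay above female KO Tau replicate 314, with 773 CPM. It had 1.32 CPM of Clec7a and 0.189 CPM of Cst7, against 1.62 and 0.705 CPM in that female library.

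Genes of border macrophages had higher values in females, with overlap, at 13.1 to 29.0 CPM over 9 genes against 6.08 to 14.4 CPM in male Tau libraries. The filter on low counts kept 9 of these 9 over all 17 libraries but 7 in the male libraries, so calls on this list are not counted. Genes of monocytes and neutrophils were at 3.94 to 56.8 CPM over 10 genes against 0.935 to 2.03 CPM. The filter on low counts kept 6 of these 10 in the Tau libraries but 1 in the male libraries. Calls on this second list are therefore not counted either. Astrocyte genes were at 11868.5 to 13776.5 CPM over 12 genes against 6145 to 11393 CPM. Of the 12, 8 passed the FDR, among them Gfap (log2 1.70), against 23.8% of all genes tested. None of the genes on these 3 lists was at 0 throughout either sex's Tau libraries. The part of these cells in the members' difference between female and male libraries was not tested.

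**Figure D4:**
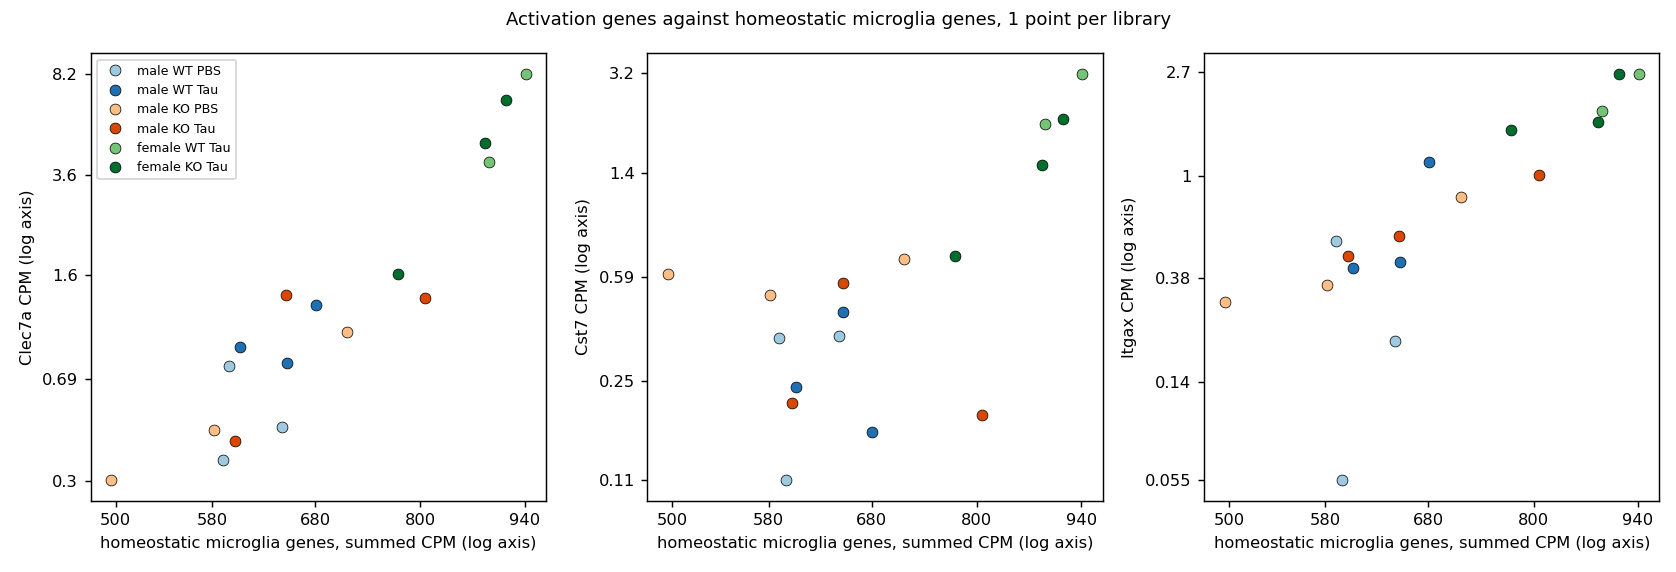
CPM of Clec7a, Cst7 and Itgax against the summed CPM of 15 resting microglia genes (both log axes), 1 point per library, coloured by group. Female libraries lie at the upper right; male KO Tau replicate 711 at 806 CPM is low in Cst7.

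The genes that act with the members were read from lists chosen by their roles. For Tau in WT males, 0 of the 27 other tested genes of the activated state passed the FDR, as did 0% of all genes. Of the 27, 4 had an unadjusted p under 0.05, all higher, against 1.86% of all genes. Their median log2 fold change over the 27 was 0.027. The lowest p belonged to Lgals3 (galectin 3, 1.42, SE 0.45), Lyz2 (lysozyme, 0.58, SE 0.23) and Ccl6 (a chemokine, 0.80, SE 0.31). In KO males 0 passed and 1, Cd63 (a lysosomal tetraspanin, 0.53, SE 0.16), had an unadjusted p under 0.05, against 7.95% of all genes. The median was 0.11. Averaged over genotypes, Cd63 (0.44, SE 0.11, adjusted p = 0.888), Ccl6 and Lgals3 were again lowest.

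Among partners of the single members, 0 passed the FDR for Tau in either genotype, as did 0% of all genes. Over all genes, 1.86% in WT and 7.95% in KO had an unadjusted p under 0.05. Of 14 tested genes of Trem2 signalling, which include the kinase Syk and the phospholipase Plcg2, 12 were higher in WT and 12 in KO. Their medians were 0.11 and 0.20, and 0 had an unadjusted p under 0.05. The 7 genes downstream of Clec7a had medians of 0.10 and 0.19. The 17 tested genes of lipoprotein and lipid handling had medians of 0.044 in WT and -0.13 in KO. In KO 7 of the 17 were higher, and 1 gene in each direction had an unadjusted p under 0.05. All 4 cathepsins and proteases inhibited by cystatin F were higher in both genotypes, with medians of 0.17 and 0.24, and in KO Ctsh (cathepsin H, 0.42, SE 0.17) had an unadjusted p under 0.05. Medians of the Axl family and its ligands (4 genes) were -0.034 and 0.11, those of the osteopontin receptors (7 genes) 0.058 and 0.057, and those of the integrin partners of Itgax (5 genes) 0.032 and 0.055.

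Between female and male Tau libraries, averaged over genotypes, 9 of 28 tested other genes of the activated state passed the FDR, all higher in females, beside 23.8% of all genes in either direction and 11.4% in this one. They included Lyz2 (log2 2.11, SE 0.28), Cd52 (1.51, SE 0.21), Ch25h, which makes 25-hydroxycholesterol (2.46, SE 0.43), and Gpnmb (1.29, SE 0.28). Among 14 tested genes of Trem2 signalling, Lyn, Lat2, Plcg2 and Btk were higher and the adaptor Grb2 was lower. Of the cystatin F targets, Ctsh (0.77, SE 0.15) and Ctsc (0.58, SE 0.11) were higher. Of the Axl family and its ligands, Mertk (0.86, SE 0.10) and Pros1 (0.78, SE 0.13) were higher and Tyro3 (-0.81, SE 0.22) lower. The integrin partners Itgb2 (0.68, SE 0.14), which pairs with Itgax at the cell surface, and Icam1 (1.23, SE 0.16) were higher, as was Itgb1 (0.36, SE 0.074) of the osteopontin receptors. Lipid genes, 18 on the list, were split, with 3 higher, Npc2, Angptl4 and Soat1, and 3 lower, Lmf1, Abcg1 and Nr1h2. The lists held 4 cystatin F targets, 4 genes of the Axl family and its ligands, 5 integrin partners and 7 osteopontin receptors. Calls on each list stand beside the 23.8% of all genes past the FDR in either direction.

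The members did not vary as a single unit from library to library. Deviations from the group means, on a log2 CPM scale over 17 libraries, correlated most between Clec7a and Cd9 (r = 0.92), Axl and Apoe (0.88), and Apoe and Cd9 (0.85). Cd9 also had r of 0.84 with Tyrobp and 0.83 with Trem2, Apoe had 0.82 with Tyrobp, and the receptor Trem2 and its adaptor Tyrobp had 0.81. Lpl, Spp1 and Cst7 correlated less with the rest. Lpl had r of -0.0067 with Trem2, Spp1 had r of 0.12 with Trem2, and Cst7 had r of 0.48 with it. These values share the library totals, and 17 libraries in 6 groups are few. The genes most like each member over 15593 tested genes were, for example, Dock4 (r = 0.98), Susd6 and Rapgef5 for Lpl, Igdcc4 (0.97) for Axl, Chst3 (0.96) for Apoe, Acaa1a (0.94) for Trem2, Il17rb (0.92) for Tyrobp and Mx1 (0.94) for Spp1. For Clec7a the first was Cd9, for Cd9 it was Pdlim4 (0.92), for Itgax Rassf9 (0.85) and for Cst7 Sh2b1 (0.87).

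The same deviations were set against scores (mean log2 CPM) of 15 cell type lists, 150 relations in all, with exact permutation within groups and Benjamini-Hochberg adjustment. Apoe followed the astrocyte score (r = 0.90, p = 0.000322, adjusted p = 0.0145, exact permutation test), with Spearman's rho of 0.94 (p = 0.000772, adjusted p = 0.0386). Without the 2 libraries farthest from the median score r was 0.88, and in the 12 male libraries it was 0.91. Lpl followed the score of CA1 pyramidal cells (r = 0.92, p = 0.00154, adjusted p = 0.0331), although its rank correlation missed the adjustment (rho = 0.88, p = 0.00212, adjusted p = 0.0637). The r was 0.87 without the 2 farthest libraries and 0.88 in males. Lpl likewise followed the score of CA2 and CA3 pyramidal cells (r = 0.89, p = 0.00129, adjusted p = 0.0322, and rho = 0.83, adjusted p = 0.0848). Lpl had r = 0.51 with the resting microglia score (adjusted p = 0.418). Trem2 followed the resting microglia score (r = 0.68, p = 0.000193, adjusted p = 0.0145), with rho of 0.76 (p = 0.000257, adjusted p = 0.0193). The r was 0.57 without the 2 farthest and 0.89 in males. Trem2 had a higher r with the oligodendrocyte score (0.74, adjusted p = 0.0611) and r of -0.72 with the neuron score (adjusted p = 0.140). Apoe had r of 0.84 with the resting microglia score (adjusted p = 0.0611) and -0.89 with the neuron score (adjusted p = 0.0754). The oligodendrocyte score was followed by Cd9 (r = 0.83, p = 0.00103, adjusted p = 0.0309), Axl (r = 0.83, p = 0.000386, adjusted p = 0.0145) and Apoe (r = 0.82, p = 0.000257, adjusted p = 0.0145). By rank only Cd9 passed (rho = 0.88, p = 6.43e-05, adjusted p = 0.00965), with Axl and Apoe at rho of 0.82 each (adjusted p = 0.0848 and 0.0506), and without the 2 farthest libraries r was 0.87, 0.83 and 0.84. Axl had a higher r with the astrocyte score (r = 0.91, rho = 0.83), which missed the adjustment (adjusted p = 0.0611). Spp1 had r = 0.78 with the fibroblast score (rho = 0.72, adjusted p = 0.104 for r and 0.111 for rho), and Cst7 had r = 0.073 with the resting microglia score (rho = 0.11, adjusted p = 0.970 for r).

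**Figure D5:**
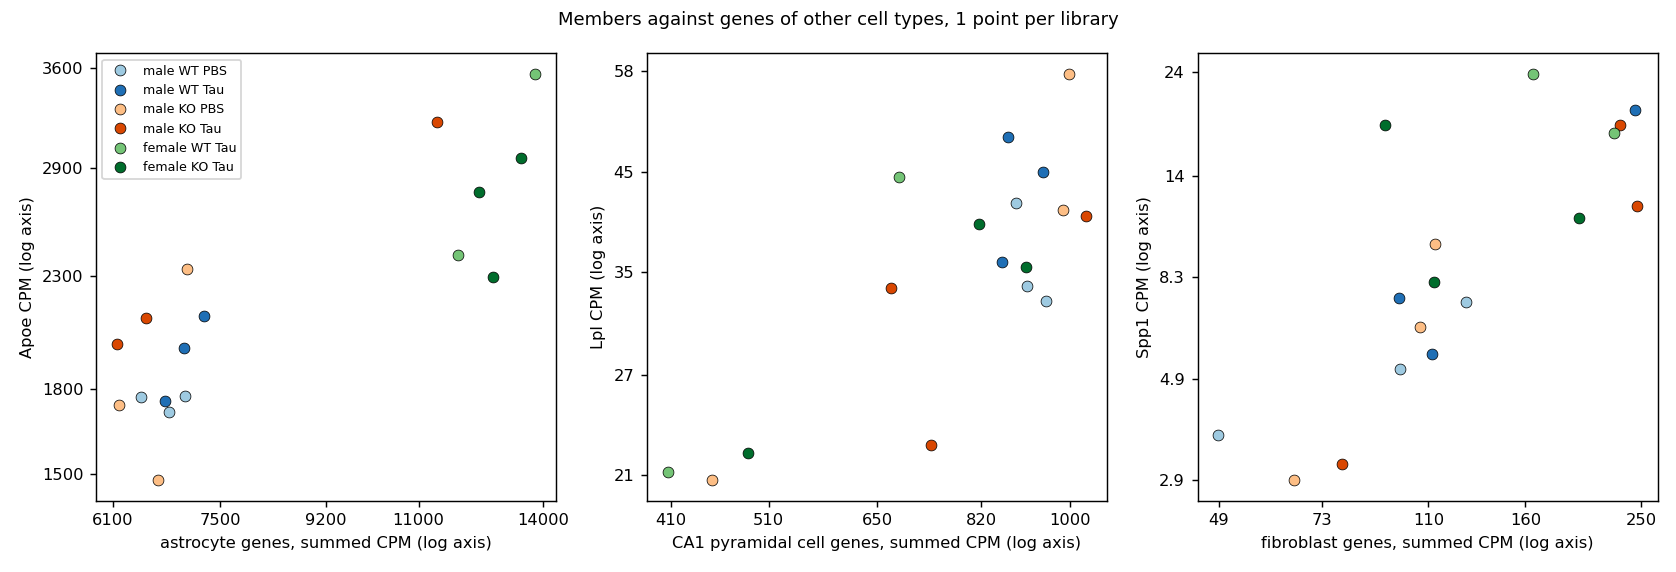
CPM of Apoe, Lpl and Spp1 against the summed CPM of astrocyte, CA1 pyramidal cell and fibroblast genes (log axes), 1 point per library, coloured by group. Male KO Tau replicate 711 lies beside the female libraries in the Apoe panel, and the 3 lowest Lpl values, 20.7 to 22.2 CPM, come from the 3 libraries with the fewest CA1 counts, 407 to 487 CPM.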

How the data were processed

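The authors deposited 1 table of raw read counts per gene symbol for 17 poly(A) libraries. Per the study's methods and the submitters' processing notes, reads were aligned to mm10 (GRCm38) with STAR 2.5.2 and SAMtools 1.1 and counted over exons with HTSeq 0.9.1 as reverse-stranded. The annotation release is not given in the sources used here. Per the labels, the mice had been perfused with PBS and then fixative before RNA was extracted. The study's own analysis used males, with 1 male KO Tau library fewer, which it does not name, so all deposited libraries were kept here. The labels call the samples biological replicates.

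From the counts, 1 model was fitted to the 12 male libraries and 1 to the 11 Tau libraries with edgeR 4.0.16 in R 4.3.3 (quasi-likelihood F-test, TMM factors, filterByExpr with a minimum count of 10 and a minimum total of 15, Benjamini-Hochberg FDR of 0.05 over all genes tested). SE is the absolute log2 fold change divided by the square root of F. Alternatives were DESeq2 1.42.0, limma 3.58.1 (voom), RLE factors, no filter, other sets of libraries, a covariate and leaving out each library. No pair of libraries was identical. Correlations used log2 CPM with a prior count of 2. Steps were tested on simulated counts.

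The members and gene lists were chosen with earlier results of these data known. All members are named. From a list, genes past the FDR or up to 3 with the lowest p were named, and for each member up to 3 genes with the highest r.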

Additional observations from a re-analysis of the deposited data

How the results depend on the processing

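For Tau in WT males, the count of members past the FDR was 0 with edgeR and with every alternative except DESeq2 fitted to these 6 libraries alone, where it was 1. For Tau in KO males it was 0 under every alternative. Small log2 fold changes turned sign. In WT, Trem2 was -0.013 with the resting microglia score as a covariate, and leaving out single libraries gave ranges of -0.000485 to 0.22 for Trem2, -0.14 to 0.014 for Axl and -0.47 to 0.31 for Cst7. In KO, voom with quality weights gave -0.043 for Tyrobp and -0.039 for Itgax, and the covariate gave -0.047 and -0.028. Leaving out single libraries in KO gave ranges of -0.021 to 0.46 for Axl, -0.014 to 0.95 for Itgax and -0.66 to 0.027 for Lpl. For female against male Tau libraries averaged over genotypes, the count of 4 was 7 with voom (6189 of 15419 genes) and 0 with the covariate (15 of 15419). It was 4 to 7 when single male or female KO libraries were left out (1585 to 6290 genes). The covariate turned Axl to -0.16, Cd9 to -0.12 and Apoe to -0.15. In WT alone the count of 0 was 4 with DESeq2 on the same libraries (807 of 20024 genes) and 1 with RLE factors (59 of 15419). It was 1 without the filter on low counts (66 of 20033), 3 with edgeR on all 17 libraries (590 of 15594) and 3 with voom (592 of 15419). With the fit limited to the 5 libraries compared it was 3 with edgeR (1107 of 15066) and 6 with DESeq2 (2171 of 19383). In KO alone the count of 1 was 3 with DESeq2 on the same libraries (2294 of 20024 genes) and 2 without the filter (772 of 20033). It was 2 with edgeR on all 17 libraries (2186 of 15594), 5 with voom (5775 of 15419) and 0 with the covariate (11 of 15419). It was 0 with edgeR limited to the 6 libraries compared (14 of 14716) and 0 to 5 when single libraries were left out (13 to 4966 genes). The causes of these shifts were not tested. Over all genes, Tau in KO males gave 37 calls with DESeq2 on the same libraries against 0 with edgeR. The other alternatives kept the direction of each single gene's log2 fold change compared here. Medians over the members turned sign without 1 library in KO PBS against WT PBS (-0.085 without replicate 753) and in female KO against WT Tau (0.11 without replicate 331). The male interaction median of -0.17 was 0.23 without KO PBS replicate 753, 0.032 without KO Tau replicate 712 and 0.0076 without WT Tau replicate 772. No paired analysis was possible because the groups share no replicate numbers. Depth limits Clec7a, Itgax and Cst7 most: at 1 to 29 counts per male library, the SE of their Tau values was 0.51 to 0.69.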
